A study of Homo sapiens with 2 samples.

Results

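ATF4 and 9 genes that respond to it when amino acids run short were followed in the human breast cancer line MDA-MB 231, a highly invasive line that lacks the estrogen receptor. The 10 genes were ATF4, DDIT3, DDIT4, TRIB3, ASNS, CHAC1, SESN2, PSAT1, PHGDH and SLC7A11, taken as a named list of ATF4-response genes, out of 19775 genes that have a probe set of their own on the array. The comparison set cells stably transfected with S100A7 in the plasmid pIRES2-EGFP against cells stably transfected with pIRES2-EGFP alone, so that both carried the plasmid and both came from the same line. Total RNA from each was read on 1 Affymetrix array, 2 arrays in all. Whether the stable cells were a pool or a single clone is not given in the sources used here.

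ATF4 is a leucine zipper transcription factor at the end of the integrated stress response. Kinases that sense missing amino acids, misfolded protein in the endoplasmic reticulum (ER), double-stranded RNA or lack of heme phosphorylate the initiation factor eIF2-alpha, which slows general translation while the ATF4 messenger is translated more. ATF4 then raises genes for amino acid import and synthesis, for restraint of the growth kinase mTORC1 and, under lasting stress, for cell death, and tumour cells, those of the breast among them, rely on it when nutrients or oxygen are scarce. ATF4 is controlled largely through translation, and the arrays measured messenger RNA only.

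The DNA element that ATF4 and its C/EBP partners bind is a composite of a C/EBP site and an ATF site. Its core, written TGATGNAA, was searched on both strands in RefSeq promoter windows of 300 bases (assembly GRCh38.p14). Each window ran from 250 bases before to 50 after a start, and not every annotated start had a window. The core was present in 1270 of 35116 windows, or 3.62%, and counted by gene for 1217 of 27305, or 4.46%. Of the 10 genes 9 had at least 1 window in that table, and the core was found for 2 of them, ASNS and CHAC1. These windows are printed, without the 50 bases after the start, because both genes were among the 3 with the lowest ratio of S100A7 over vector. The lowest of the 10, TRIB3, had no match in any of its windows. Those windows hold starts at 381295, 381306 and 381343 of chromosome 20. The outermost annotated start of TRIB3, at 380760, had no window and was not searched. The same holds for the outermost start of ASNS, at 97928441 of chromosome 7. Capitals mark the core, which in CHAC1 lies on the opposite strand (209 to 202 bases before the start) and in ASNS on the gene's own strand (68 to 61 bases before the start). The CHAC1 stretch is chr15:40953221-40953470 on the plus strand, and the ASNS stretch is chr7:97872409-97872658 on the minus strand.
CHAC1: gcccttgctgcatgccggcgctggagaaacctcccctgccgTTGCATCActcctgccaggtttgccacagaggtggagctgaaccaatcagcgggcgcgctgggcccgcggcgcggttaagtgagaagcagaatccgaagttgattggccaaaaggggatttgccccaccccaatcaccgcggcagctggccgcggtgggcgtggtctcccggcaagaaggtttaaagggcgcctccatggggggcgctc
ASNS: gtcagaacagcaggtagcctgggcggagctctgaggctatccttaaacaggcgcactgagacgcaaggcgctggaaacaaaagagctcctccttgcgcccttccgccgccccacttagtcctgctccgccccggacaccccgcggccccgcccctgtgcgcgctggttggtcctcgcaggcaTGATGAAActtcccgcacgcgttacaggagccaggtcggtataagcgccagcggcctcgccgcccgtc
A match is a description of these letters and not of binding. Of 297 measured genes whose window held the core, the median log2 ratio of S100A7 over vector was -0.03, against -0.04 over all 10310 measured genes with a window. At least 2-fold lower were 9 of the 297 (3.03%), and at least 2-fold higher 5 (1.68%). Those shares are near the 2.25% and 1.8% of all 12688 measured genes, which include genes without a window.

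Values are MAS5 intensities on a linear scale, and the floor, which stands in for a detection call, was each array's own median over probe sets, 69.0 in S100A7 cells and 71.0 in vector cells. A gene was measured when a probe set reached the floor on at least 1 array, and its brightest such probe set stood for it. With 1 array for each, there is no test and no p-value, and no difference below was set against the spread between cultures or between separately selected stable lines. The only spread at hand is that between probe sets of a gene, a pooled standard deviation of 0.36 on the log2 scale over 6465 genes, which does not stand for biological replicates.

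The transfected gene itself read 13232 in S100A7 cells and 11.99 in vector cells, as the labels state. Among genes described as high in this line, VIM, CD44, AXL, CAV1 and ANXA1 read from 12481 to 35575 in S100A7 cells and from 11465 to 38087 in vector cells, while SPARC was close to the floor, at 114 in S100A7 cells and 72.7 in vector cells. ESR1, PGR and CDH1 were below the floor on both arrays, but ERBB2, GATA3 and EPCAM, also described as low, read from 513 to 752 in S100A7 cells and from 497 to 719.7 in vector cells. Of 8 blood cell markers 5 were below the floor on both arrays, 1 had no probe set of its own, and ITGAM and HBB read at most 127. Of 10 markers of stroma, nerve and muscle 4 were below the floor, and of the others TUBB3, a tubulin, was bright (16037 in S100A7 cells and 14914 in vector cells). The ratio of 3' over 5' signal was 1.07 in S100A7 cells and 1.09 in vector cells for ACTB, and 0.801 in S100A7 cells and 0.718 in vector cells for GAPDH.

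As a group the 10 genes were slightly lower in S100A7 cells, and 1 of them, TRIB3, was past 2-fold. In RNA from a whole culture, fewer cells expressing a gene and less of its RNA per cell cannot be told apart. The median log2 ratio of the 10 was -0.20, against -0.04 over all 12688 measured genes. A log2 ratio below 0 was found for 8 of the 10, where 54.2% of all measured genes had one, and a ratio above 0 for 2, where 45.8% had one. At least 2-fold lower was 1 of the 10, against 2.25% of all measured genes, and at least 2-fold higher were 0 of the 10, against 1.8%. At 1.5-fold, 3 were lower (TRIB3, CHAC1 and ASNS), where 10% of all measured genes were, and 0 were higher, where 8.12% were. All 10 were above the floor on both arrays, so no ratio among them is a bound set by the floor.

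**Figure D1:**
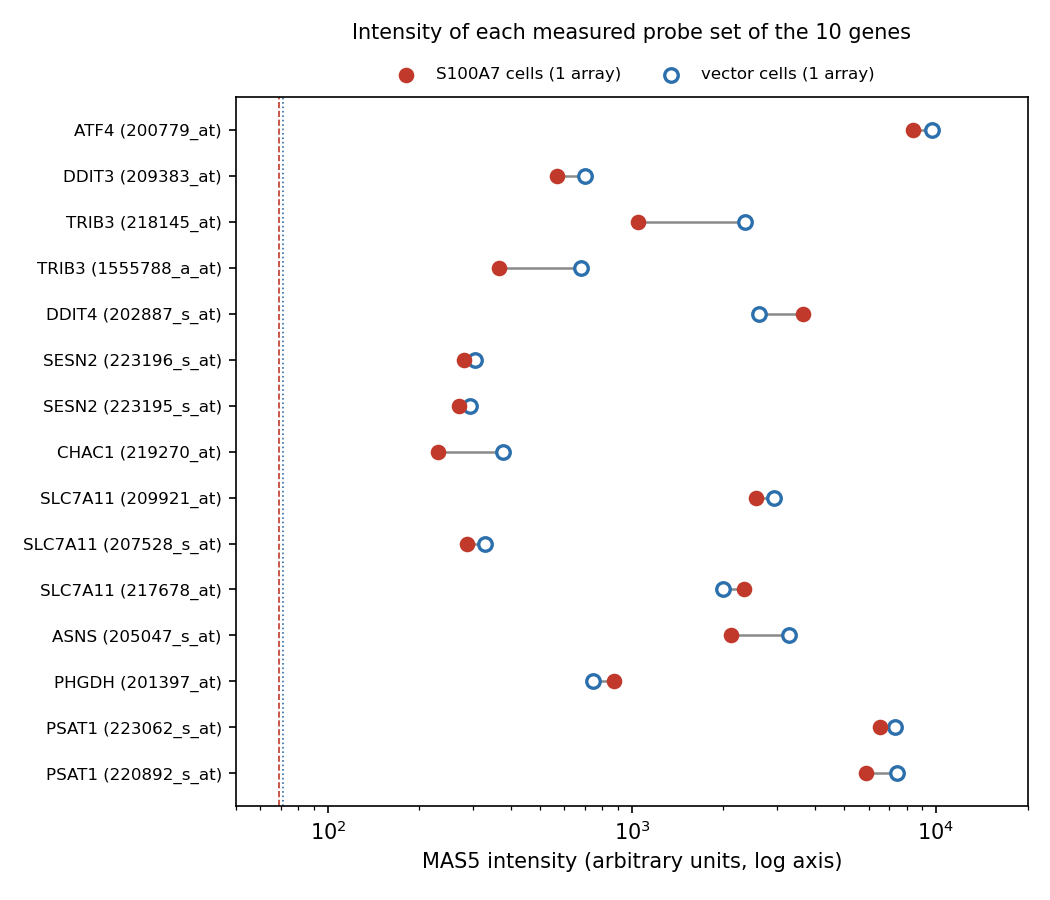
Intensity of the 15 measured probe sets of the 10 genes on a log axis, filled points for the S100A7 array and open points for the vector array, with the dashed and dotted lines at the floors of 69.0 (S100A7) and 71.0 (vector). The 2 TRIB3 probe sets, CHAC1 and ASNS show the widest gaps with the S100A7 point on the left, while DDIT4, PHGDH and 1 of the 3 SLC7A11 probe sets have it on the right.

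In all, 17 probe sets were annotated to the 10 genes, 16 of them to 1 gene. Of the 16, 15 were above the floor on both arrays, 12 of them lower and 3 higher in S100A7 cells. The remaining one, 241082_at for ASNS, read 3.45 in S100A7 cells and 3.95 in vector cells and carries no information. Several of the 15 are repeat probe sets of 1 gene. By gene, 8 of the 10 were lower, where 54.2% of all measured genes were. The 17th, 212995_x_at, lists PHGDH beside MZT2A and MZT2B. It read 5079 in S100A7 cells and 7886 in vector cells, and it was assigned to none of the 3 genes. In 6 of the genes the measurement rests on a single measured probe set. Those chosen for ASNS, DDIT4, PSAT1 and SESN2 carry the suffix _s_at, given to probes shared by more than one transcript.

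The transcription factor at the head of the response differed little. ATF4 read 8412 in S100A7 cells and 9698 in vector cells, a log2 ratio of -0.21, and 34.1% of measured genes lay at or below that ratio. DDIT3, which encodes CHOP, a partner of ATF4 that promotes cell death under lasting ER stress, read 566 in S100A7 cells and 703 in vector cells, a log2 ratio of -0.31. Both genes were thus lower in S100A7 cells by less than the spread between probe sets of one gene.

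TRIB3 encodes a pseudokinase that is induced by ATF4 and CHOP and dampens their activity in return, and that also binds the kinase AKT. Its brightest probe set, 218145_at, read 1049.55 in S100A7 cells and 2359 in vector cells, which is 2.25-fold lower. The other, 1555788_a_at, read 367 in S100A7 cells and 677 in vector cells, 1.85-fold lower. Both probe sets were therefore lower, with log2 ratios of -1.17 and -0.89, and 1.36% of measured genes had a ratio at or below that of TRIB3.

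**Figure D2:**
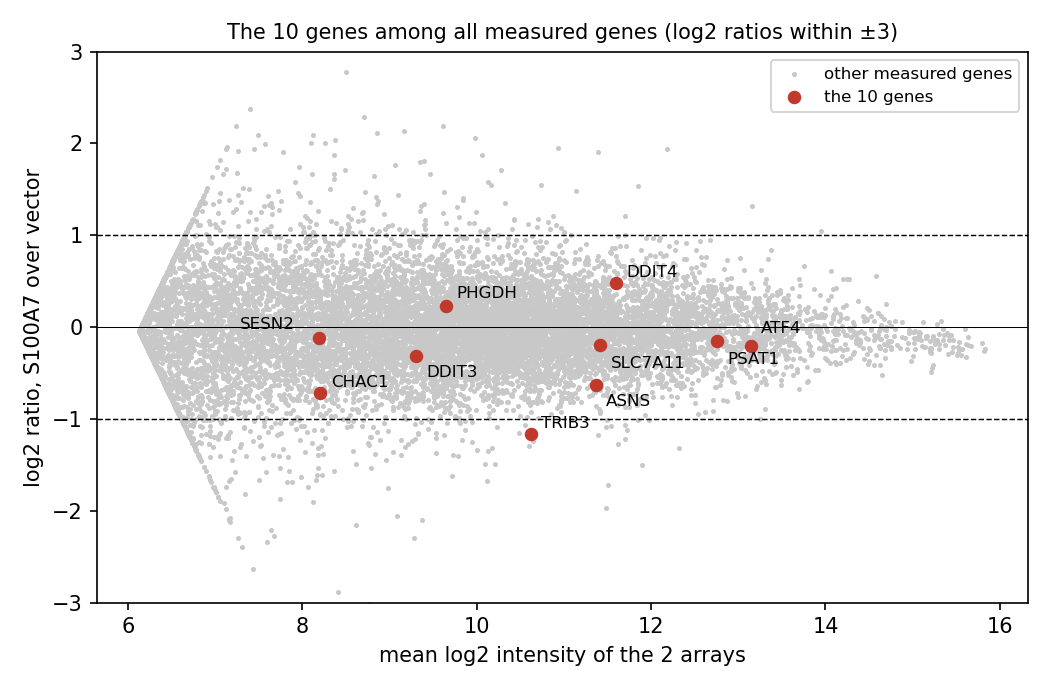
Log2 ratio of S100A7 over vector against the mean log2 intensity of the 2 arrays, with the 10 genes labelled in red over all other measured genes in grey and dashed lines at 2-fold; 12 measured genes lie beyond 3 on the log2 scale and are not drawn. TRIB3 at -1.17 is the 1 labelled gene past a dashed line, and DDIT4 at 0.48 is the highest of the 10.

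The pair of genes that restrain mTORC1 did not move alike. DDIT4, also called REDD1, releases the TSC complex to switch mTORC1 off and answers to hypoxia and glucocorticoids as well as to ATF4. It read 3654 in S100A7 cells and 2621 in vector cells, 1.39-fold higher, and 88.3% of measured genes lay at or below its log2 ratio of 0.48. SESN2, a leucine sensor that inhibits mTORC1 when leucine is absent, read 281 in S100A7 cells and 304 in vector cells on one probe set, and 269.6 in S100A7 cells and 293 in vector cells on the other. Its log2 ratios were -0.12 on each, against the median of -0.04 over all measured genes.

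Of the glutathione and cystine genes, CHAC1 was lower and SLC7A11 had no single direction, both within 2-fold. CHAC1, an enzyme that degrades glutathione inside the cell, read 230.1 in S100A7 cells and 378 in vector cells, 1.64-fold lower, on its only probe set. Its log2 ratio of -0.72 had 6.34% of measured genes at or below it. SLC7A11, the subunit of the xCT antiporter that imports cystine in exchange for glutamate, had probe sets that disagreed in sign. They read 2549, 286 and 2342 in S100A7 cells and 2922, 329.6 and 2000.35 in vector cells, in that order, with log2 ratios of -0.20, -0.20 and 0.23. Its antisense neighbour SLC7A11-AS1, on a probe set of its own, was below the floor on both arrays, at 27.5 in S100A7 cells and 7.33 in vector cells.

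Among the enzymes of amino acid synthesis, ASNS was lower and the serine pathway was mixed. ASNS, which makes asparagine from aspartate and glutamine, read 2119 in S100A7 cells and 3283 in vector cells, 1.55-fold lower. Its log2 ratio of -0.63 had 8.59% of measured genes at or below it. PHGDH, which opens serine synthesis from glycolysis, read 869.7 in S100A7 cells and 742 in vector cells, 1.17-fold higher. PSAT1, which takes the next step, read 6557 and 5895 on its pair of probe sets in S100A7 cells and 7309 and 7437 in vector cells, with log2 ratios of -0.16 and -0.34. PSPH, which ends the pathway, had a log2 ratio of -0.09 (other probe set -0.34). By their brightest probe sets the 3 enzymes of one route thus lay between -0.16 and 0.23.

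The genes lie on 9 chromosomes, and the 3 that were lowest lie among neighbours that were low too. The median log2 ratio of the measured genes around each member, up to 20 on either side, was -0.51 for TRIB3, -0.41 for ASNS and -0.37 for CHAC1, the 3 lowest of the 10. For the other 7 it ran from -0.27 around ATF4 to 0.24 around DDIT4. Of all genes with such a value, 1.003% had a neighbour median at or below that of TRIB3, 3.64% at or below that of ASNS and 5.67% at or below that of CHAC1. Relative to its neighbours TRIB3 was at -0.65, which is under 2-fold, CHAC1 at -0.34, ASNS at -0.23 and ATF4 at 0.06. On the same scale SLC7A11 was at -0.35, SESN2 at -0.28, DDIT3 at -0.27, PSAT1 at -0.12, PHGDH at 0.22 and DDIT4 at 0.24. The median of the 10 was -0.25 relative to neighbours, against -0.20 without the subtraction. The part of the neighbourhood in these differences was not tested.

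**Figure D3:**
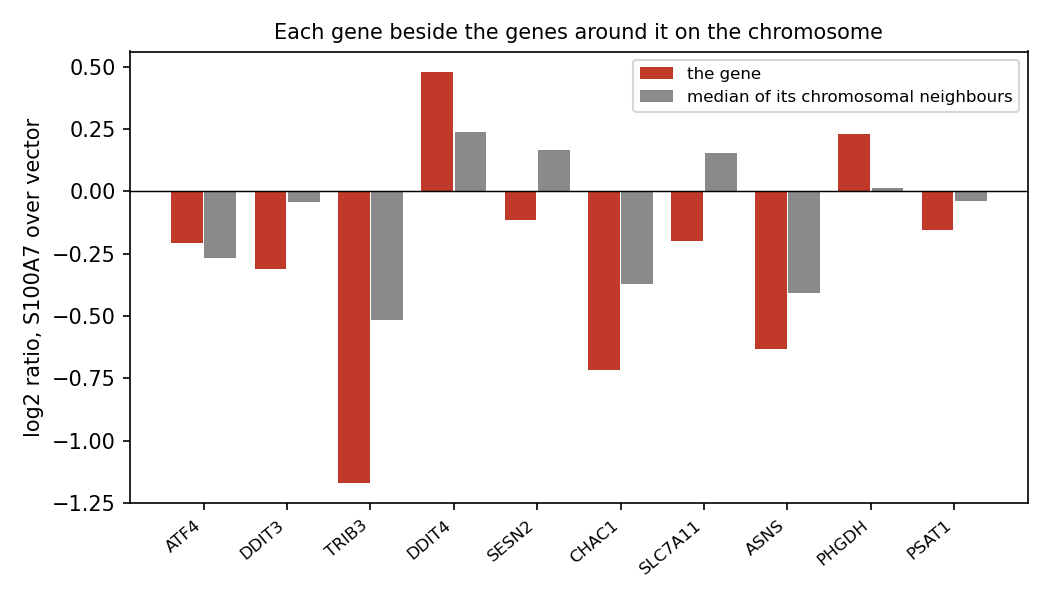
Bars give the log2 ratio of S100A7 over vector for each of the 10 genes in red and the median of its measured chromosomal neighbours in grey, without error bars because each group has 1 array. The red and grey bars point the same way for 8 of the 10, the exceptions being SESN2 and SLC7A11.

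TRIB3 lies near the end of the short arm of chromosome 20, with 3 measured genes on its outer side and 20 on the inner side. Of these 23 neighbours 21 had a log2 ratio below 0 and 2 were at least 2-fold lower, namely SRXN1, the antioxidant sulfiredoxin (-1.12), and SIRPA, a receptor for the CD47 signal (-1.04). Over all measured genes, 54.2% were below 0 and 2.25% at least 2-fold lower. The ratio of TRIB3 was below that of each of the 23. Chromosome 20 as a whole had a median of -0.15 over 377 measured genes. Chromosome 7, which holds ASNS, had a median of -0.30 over 576 measured genes, against -0.41 among the neighbours of ASNS. Chromosome 15, which holds CHAC1, had a median of -0.33 over 420, against -0.37 among the neighbours of CHAC1. ASNS had 33 of 40 neighbours below 0 and CHAC1 34 of 40, against 31 of 40 for ATF4 and 23 of 40 for DDIT3. For DDIT4 the picture was turned round, with 12 of 40 below 0.

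**Figure D4:**
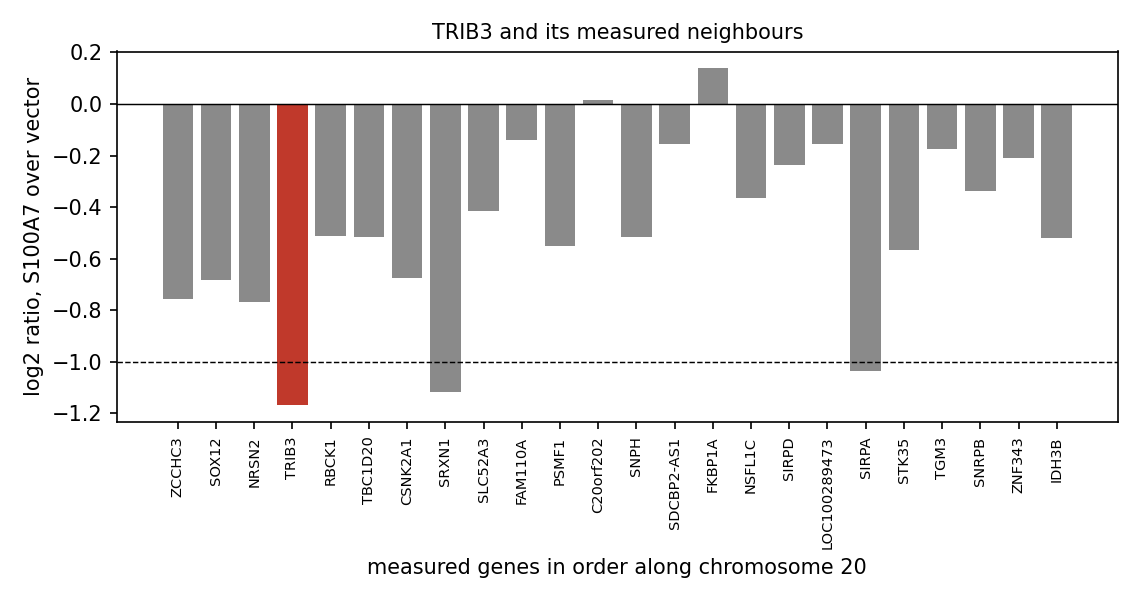
Log2 ratio of S100A7 over vector for TRIB3 (red) and its 23 measured neighbours in their order along chromosome 20, with a dashed line at 2-fold lower. TRIB3, SRXN1 and SIRPA pass the line, and 21 of the 23 neighbours are below 0.

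Upstream of ATF4, the kinases and phosphatase subunits that set eIF2-alpha phosphorylation, together with the subunits of eIF2 and of its exchange factor, lay within 2-fold by their brightest probe sets. Of 15 listed and measured, 10 were below 0, where 54.2% of all measured genes were, and the median log2 ratio was -0.08. At least 2-fold lower were 2.25% of all measured genes, and at least 2-fold higher 1.8%. The lowest was EIF2AK4, which encodes GCN2, the kinase that senses uncharged tRNA. It read 442 in S100A7 cells and 782 in vector cells, 1.77-fold lower, but its other probe set had a log2 ratio of 0.11. The other kinases were at -0.25 (EIF2AK1, the heme-regulated kinase), -0.19 (EIF2AK2, or PKR) and -0.49 (EIF2AK3, or PERK). A dimmer probe set of EIF2AK2 was past 2-fold lower, at -1.16. PPP1R15A, or GADD34, the stress-induced subunit that reverses the phosphorylation and is itself an ATF4 target, was at -0.45, and PPP1R15B, the constitutive one, at 0.23. The highest of the list was EIF2B3 at 0.40. The median of the chromosomal neighbours was -0.39 around EIF2AK4, -0.31 around both EIF2AK3 and PPP1R15A, and 0.17 around EIF2B3. The part of the neighbourhood in this and the following lists was not tested.

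Transcription regulators that work with ATF4 or beside it included 1 of 10 at least 2-fold lower, where 2.25% of all measured genes were, and 0 at least 2-fold higher, where 1.8% were. NUPR1, a small stress-induced chromatin protein, read 64.7 in S100A7 cells, below the floor, and 180.5 in vector cells, at least 2.62-fold lower. CEBPG, a heterodimer partner of ATF4, was lower on both probe sets (-0.67 and -0.75), and so was ATF5 (-0.53 and -0.70), whereas ATF3 was at 0.08 with others of its 3 probe sets down to -0.24. JDP2 was the highest at 0.51, its other probe set being at -0.06. ATF6 and XBP1, which head the other arms of the unfolded protein response, were at 0.42 and 0.27. Others of the 4 ATF6 probe sets ran down to -0.10. The list's median was -0.10. Neighbour medians were -0.34 around CEBPG and -0.21 around both ATF5 and NUPR1. Relative to neighbours the list's median was -0.22.

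Among amino acid transporters 12 of 16 measured had a log2 ratio below 0, where 54.2% of all measured genes did, with a median of -0.15. At least 2-fold lower was 1 of the 16, against 2.25% of all measured genes. That was SLC1A1, a glutamate and aspartate carrier that also takes up cysteine, at 174 in S100A7 cells and 367 in vector cells, 2.11-fold lower, and its second probe set gave a log2 ratio of -0.77. SLC7A5, the LAT1 subunit that imports large neutral amino acids, was at -0.65 (5441 in S100A7 cells and 8528 in vector cells), and SLC1A5, the glutamine carrier ASCT2, was at -0.44. SLC3A2, the heavy chain that both SLC7A5 and SLC7A11 need at the membrane, was at -0.32. Neighbour medians were -0.38 around SLC7A5 and -0.35 around SLC1A5, but -0.01 around SLC1A1 and 0.33 around SLC3A2. Relative to neighbours the list's median was -0.09. The highest was SLC7A8 at 0.44, from intensities of 110.1 in S100A7 cells and 81.4 in vector cells that were close to the floor.

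Other enzymes of amino acid and one-carbon synthesis had a median of -0.23 over 12 measured of 20 listed, 8 of them below 0 and 0 outside 2-fold by their brightest probe sets. Over all measured genes 54.2% were below 0, 2.25% at least 2-fold lower and 1.8% at least 2-fold higher. MTHFD2, the mitochondrial folate enzyme downstream of serine, was the lowest, at 2632 in S100A7 cells and 4513 in vector cells, with log2 ratios of -0.78 and -1.26 on its pair of probe sets. GOT1, an aspartate aminotransferase, was the highest at 0.24, but GOT2, the other one listed, was at -0.67 (10527 in S100A7 cells and 16743 in vector cells). CTH, which makes cysteine from cystathionine, was at -0.55. Of the proline enzymes, PYCR1 was at 0.18 and PYCR3 at -0.55. Neighbour medians were -0.19 around MTHFD2 and -0.46 around PYCR3, but 0.11 around GOT2 and 0.02 around CTH. Relative to neighbours the list's median was -0.14.

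Other target and effector lists had medians from 0.01 to 0.10. For comparison, 54.2% of all measured genes were below 0, 2.25% at least 2-fold lower and 1.8% at least 2-fold higher. Aminoacyl-tRNA synthetases, many of which ATF4 raises, had a median of 0.02, with 8 of 17 measured below 0 and 0 outside 2-fold by their brightest probe sets, from FARSB at -0.61 (other probe sets up to 0.71) to NARS1 at 0.74. CARS1, at -0.14, had a dimmer probe set at -1.13 or lower, the S100A7 array being below the floor there. Other genes described as ATF4 targets had a median of 0.10, with 11 of 16 measured above 0, where 45.8% of all measured genes were, from ADM2 at -0.83 to ERN1, the ER stress sensor IRE1-alpha, at 0.92 (other probe sets down to 0.004). GDF15, a secreted stress hormone, was 1.61-fold higher, at 346 in S100A7 cells and 215 in vector cells. Dimmer probe sets of 3 genes of this list were past 2-fold higher where the brightest was not: SQSTM1, an autophagy receptor (1.53 against 0.53), SLFN5 (1.36 against 0.61) and the autophagy gene ATG5 (1.12 against 0.07). Sestrin and mTORC1 amino acid sensing genes had a median of 0.01 over 22, from RRAGB at -0.94 to MTOR at 0.94, each on 1 probe set. Glutathione genes had a median of 0.05 over 9, from GSR, glutathione reductase, at -0.36 to GCLC, which limits glutathione synthesis, at 0.52.

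ER chaperones and degradation factors, which answer mainly to ATF6 and XBP1, had a median of 0.02. Of 22 measured, 10 were below 0, where 54.2% of all measured genes were, and 0 were outside 2-fold on any measured probe set. HSPA5, the chaperone BiP, was at -0.18 (other probe set 0.13), HSP90B1 at 0.04 (other probe set -0.46) and HERPUD1 at 0.03. The lowest was DERL1 at -0.72, with others of its 4 probe sets up to 0.25, and the highest was SEL1L at 0.48. By brightest probe sets, no list had a member at least 2-fold higher in S100A7 cells, where 1.8% of all measured genes were. No difference between lists was tested.

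**Figure D5:**
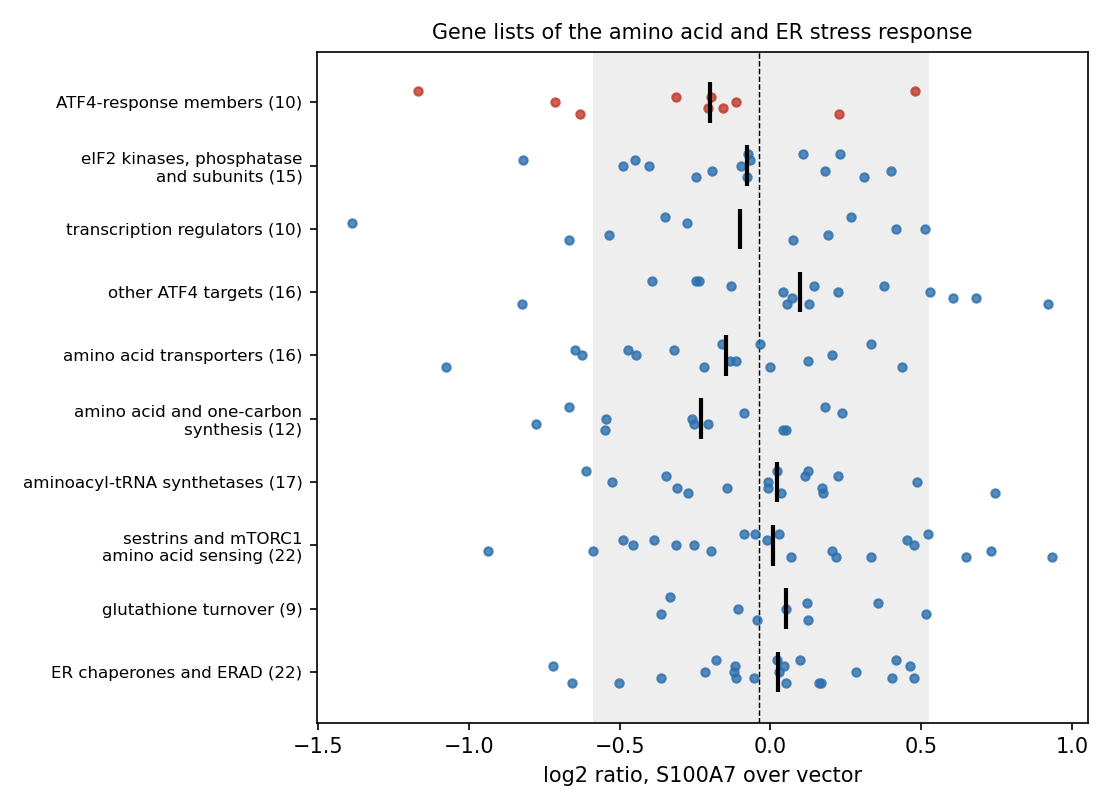
Each point is 1 measured gene, placed by its log2 ratio of S100A7 over vector, in rows by gene list with the number measured in brackets; black bars are list medians, the dashed line is the median of all measured genes (-0.04) and the grey band runs from their 10th to 90th percentile (-0.59 to 0.52). The medians lie between -0.23 for amino acid and one-carbon synthesis and 0.10 for other ATF4 targets, and most points of every list fall in the band.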

How the data were processed

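Total RNA of 2 stable transfectants of MDA-MB 231 was turned into biotin-labelled cRNA (2 µg of RNA per sample) and read on Affymetrix GeneChip arrays, per the labels' protocols. The deposited intensity values, 1 per probe set on a linear scale, were made by the authors with MAS5, per the submitters' processing notes; version, scaling target and any present or absent calls: not given in the sources used here. The trimmed mean (2% off each end) was 500.1 on both arrays, so values were used as deposited. Of 54675 probe sets, 41097 are paired with 1 gene in the platform's annotation, 1801 with several and 11721 with none; of the 62 controls, 6 are among those with 1 gene and were left out, and the rest have no gene listed and are not in the 11721. Of the probe sets kept, 41037 were matched by Entrez identifier to RefSeq genes of GRCh38.p14 for current symbols and order along chromosomes.

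Values below the floor (each array's 50th percentile without controls) were raised to it, which left 24438 probe sets for 12688 genes, and the log2 ratio of S100A7 over vector was taken (Python 3.11.15, pandas 2.3.3). Called means at least 2-fold. Neighbours were the nearest 20 measured genes on each side. The number of arrays limits the precision. The members and lists were chosen with earlier results of these data known. The naming rule took all members and, from each list, genes at least 2-fold apart and the highest and lowest ratio; other list genes were named for their role after their values were seen. The calling step was run on arrays simulated from these data, with set fold changes given to genes well above the floor. That run does not bear on dim genes or on the spread between cultures. Alternatives were other scalings, floors, thresholds and probe set choices and subtraction of the neighbours' median.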

Additional observations from a re-analysis of the deposited data

How the results depend on the processing

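The sign of each member's log2 ratio was the same in 85 of 86 values from the 9 alternatives that give one. The exception was ATF4, at 0.06 after subtracting the neighbours' median. Many of the 86 values could not differ from those reported, because the members lie above the floor on both arrays. The floor at the 30th percentile and the setting with no filter and no floor left every member's ratio unchanged. TRIB3 ranged from -1.17 to -0.65, CHAC1 from -0.74 to -0.34 and ASNS from -0.63 to -0.23, the upper end in each case after that subtraction. The median of the 10 ranged from -0.26, without probe sets of the suffixes _x_at and _s_at (6 members left), to -0.16 with median centring. The number of members at least 2-fold lower, 1 as reported, was 0 after subtracting the neighbours' median. With that subtraction 216 of 12688 measured genes were at least 2-fold lower and 246 at least 2-fold higher. The number of lower members was 3 at a threshold of 1.5-fold, where 1275 of 12688 genes were lower. At 3-fold it was 0, where 55 of 12688 were lower. No member was at least 2-fold higher under any of the 11 alternatives. Over all 12688 measured genes, 228 were higher and 286 lower as reported. The counts were 1030 and 1275 at 1.5-fold, and 47 and 55 at 3-fold. They were 679 and 979 of 16769 with the floor at the 30th percentile, and 99 and 88 of 8976 with it at the 70th. With no filter and no floor they were 1911 and 2387 of 19775. These follow from how many dim probe sets are kept and where the threshold lies. No paired analysis was possible because each group has 1 array. Signal over background limits NUPR1, SLC7A8 and ADM2, which read close to the floor on at least 1 array.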
